A study of Sus scrofa with 11 samples.

Results

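The genes of beta-oxidation, the cycle that shortens fatty acids by a pair of carbons at each turn, were examined in skin wounds of a diabetic and a non-diabetic minipig. The 32 genes were listed by symbol: the acyl-CoA dehydrogenases, the later enzymes of the mitochondrial cycle, the electron transfer proteins, the peroxisomal oxidases and their partner enzymes, peroxisomal transporters and thioesterases. Of these, 30 symbols were among the 30376 genes of the deposited table, 18 of them mitochondrial and 12 peroxisomal. The symbols ACOT1 and ACOT2, for a cytosolic and a mitochondrial thioesterase, did not match any row and were not analysed here. ABCD2 did not pass the filter on low values, so 29 members were tested. ECI2, ACAD11, ACOT13, AMACR and SCP2 have been placed in more than 1 compartment and were counted here as mitochondrial (ECI2, ACAD11 and ACOT13) or peroxisomal (AMACR and SCP2).

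Bulk RNA sequencing was done on full-thickness dorsal skin wounds of Yucatan minipigs taken on day 10. The 7 diabetic wounds came from 1 minipig given streptozotocin, a toxin of the insulin-producing cells, with insulin support that was stopped before wounding. The 4 non-diabetic wounds came from 1 minipig without diabetes that received the same wounds, and each wound gave 1 library. Since each group was 1 animal, the animal and diabetes cannot be told apart, and every p-value rests on how far wounds within an animal spread.

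Fatty acids are activated to acyl-CoA and enter mitochondria through the carnitine shuttle, whose entry step is CPT1A. In the mitochondrial cycle an acyl-CoA dehydrogenase, a hydratase, a hydroxyacyl-CoA dehydrogenase and a thiolase act in turn, and the electrons of the dehydrogenases pass through ETFA, ETFB and ETFDH to the respiratory chain. Peroxisomes run a parallel cycle for very long, branched and bile acid-like chains, in which an oxidase replaces the dehydrogenase and passes its electrons to oxygen. Many of these genes are textbook targets of the PPAR nuclear receptors in liver and muscle under fasting.

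Values are FPKM, fragments scaled to gene length and to the fragments of the library. Comparison of levels between genes rests on the deposited gene lengths, and members that overlap another gene may hold some of its reads. Libraries held 28314785 to 40168372 reads on genes, and for a gene of 2 kb a read was worth 0.0112 to 0.0194 FPKM. Every tested member had at least 159 reads in every wound. Diabetic wound 4 and non-diabetic wound 1 stood apart from the others, with summed FPKM of 8 keratinocyte markers of 38.5 and 271, against 1564 to 6699 in the other wounds. Skeletal muscle markers summed to 1725 FPKM in diabetic wound 3 and to at most 0.272 FPKM elsewhere. The part of either in the values below was not tested. Values without diabetic wound 4 and non-diabetic wound 1 are given for some members only.

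No member of the cycle passed the test in either direction. Of the 29 tested, the diabetic wounds had 0 called higher and 0 called lower (limma, adjusted p under 0.05 and absolute log2 fold change over 0.5), where 3.00% of all 13956 genes tested were called, 1.35% higher and 1.66% lower. The test on reads recovered from the FPKM values (voom) also called 0 members. At an unadjusted p under 0.05 in limma there were 6, HADHA, ACADM, ETFA, ETFB, EHHADH and ACAD10, in a table where 18.4% of all genes tested reached that level. ACAD10 alone had an adjusted p under 0.05, which 3.58% of all genes tested had, with a fold change below the threshold. The 95% confidence interval of the log2 fold change lay between -1 and 1 for all 29 tested members (85.6% of all genes tested) and between -0.5 and 0.5 for 18 of them (46.1% of all genes tested). In 3 members, all mitochondrial, the groups did not overlap, 2 with the diabetic wounds higher (ACADM and ETFB) and 1 with them lower (ACAD10). Over all genes tested the groups did not overlap in 5.65%, 2.69% with the diabetic wounds higher and 2.96% with them lower. In bulk tissue, fewer cells of a type and less RNA per cell cannot be told apart.

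**Figure D1:**
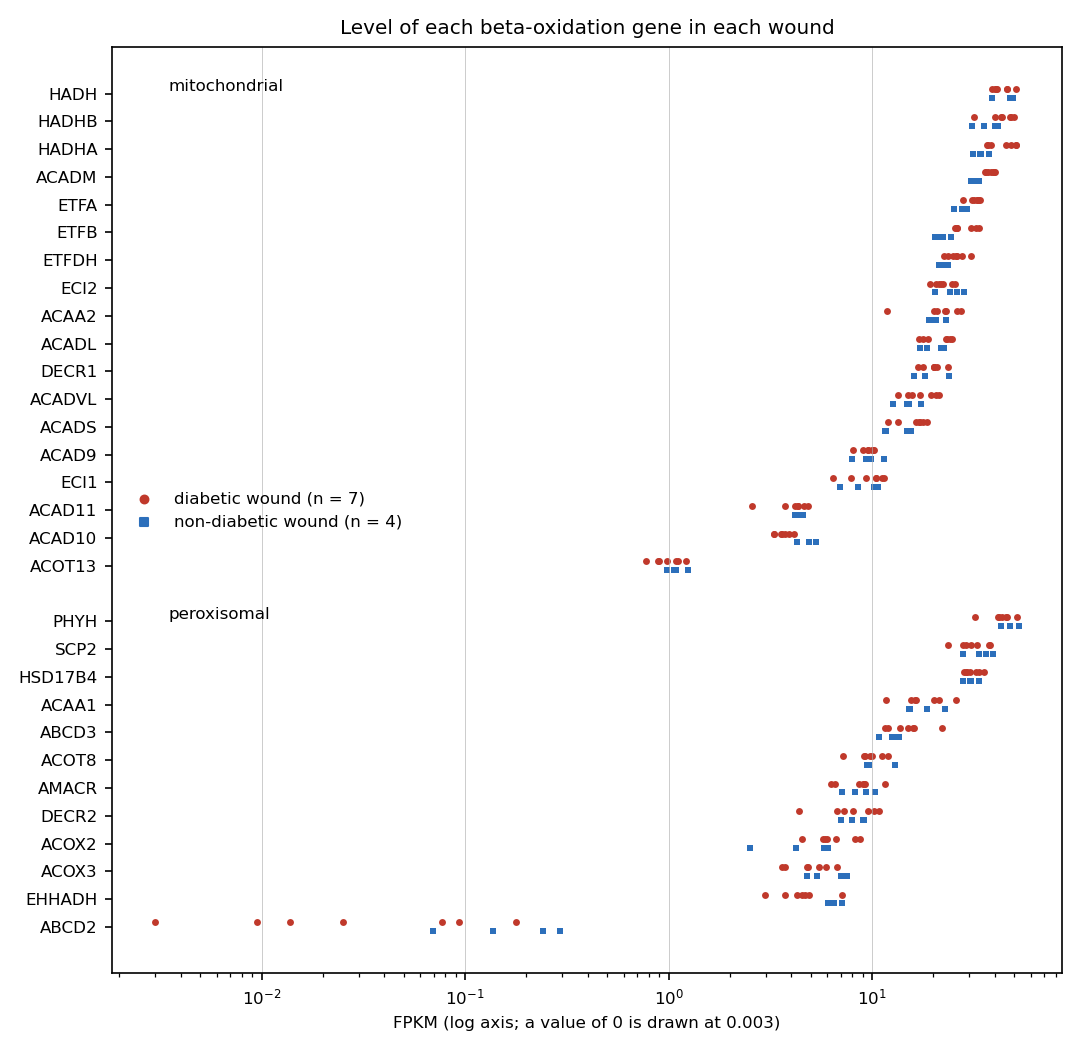
Level of each of the 30 members in each wound, on a logarithmic FPKM axis, for 7 diabetic wounds (red circles) and 4 non-diabetic wounds (blue squares), with 0 drawn at the left edge. The genes span from under 1 FPKM to over 50 FPKM, and in all but ACADM, ETFB and ACAD10 the groups overlap.

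The highest mean levels over all wounds were those of PHYH at 45.2 FPKM, HADH at 44.3 FPKM, HADHB at 41.1 FPKM, HADHA at 40.4 FPKM and ACADM at 35.9 FPKM. The lowest were those of ACAD11 at 4.17 FPKM, ACAD10 at 4.08 FPKM, ACOT13 at 1.03 FPKM and ABCD2 at 0.103 FPKM. The ranges over the wounds of HADH, HADHB and HADHA overlapped, whereas every wound had more ACAD10 than ACOT13 and more ACOT13 than ABCD2.

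**Figure D2:**
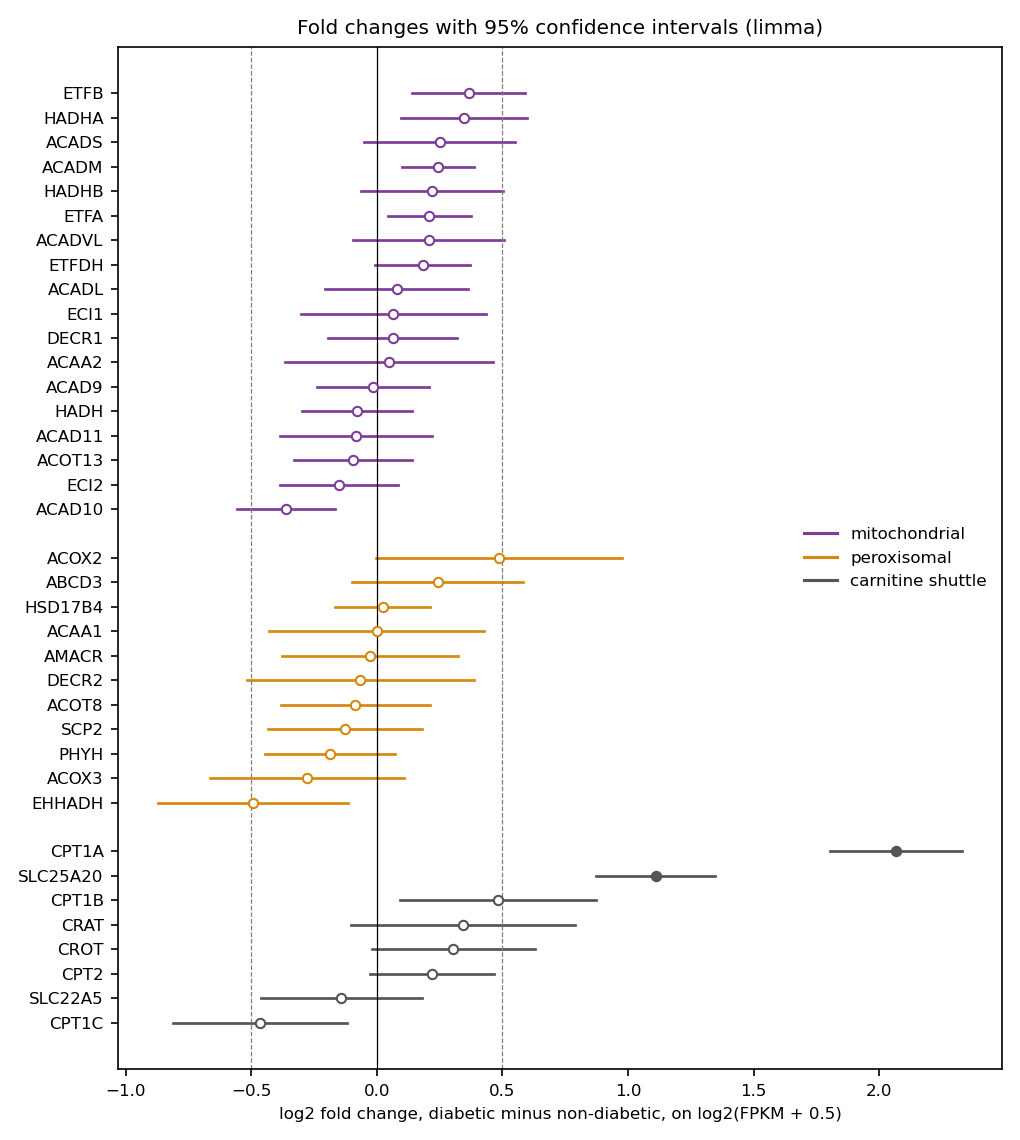
Log2 fold change (diabetic minus non-diabetic, on log2(FPKM + 0.5), limma) with its 95% confidence interval for the 29 tested members and 8 carnitine shuttle genes. Filled points passed the test and dashed lines mark the fold threshold of 0.5, and the filled points are CPT1A at 2.07 and SLC25A20 at 1.11.

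The acyl-CoA dehydrogenases carry out the first step, each for a range of chain lengths. ACADM, for medium chains (chromosome 6, 137541481 to 137575544, minus strand), had 35.8 FPKM in the lowest, 38.4 in the median and 40.0 in the highest diabetic wound. The non-diabetic wounds had 33.5, 32.5, 30.7 and 31.6 FPKM. Every diabetic wound was above every non-diabetic wound, and ACADM had the smallest spread within groups of all members (SD 0.060 on the log2 scale). Its mean was 38.1 ± 1.67 FPKM (SD, n = 7) against 32.1 ± 1.20 FPKM (SD, n = 4), a log2 fold change of 0.24 (standard error, SE, 0.07, limma adjusted p = 0.0671). The two-sided exact permutation test gave p = 0.00303, the smallest that the 330 splits into 7 and 4 allow. Without diabetic wound 4 and non-diabetic wound 1 the log2 fold change was 0.25 (limma adjusted p = 0.180).

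The 250 bases upstream of the annotated start of ACADM are shown because its groups separated most tightly (Sscrofa11.1, chr6:137575545-137575794, read on the minus strand). Capitals mark GGGCGG or its reverse complement, the GC box bound by Sp1-type factors.
ACADM upstream: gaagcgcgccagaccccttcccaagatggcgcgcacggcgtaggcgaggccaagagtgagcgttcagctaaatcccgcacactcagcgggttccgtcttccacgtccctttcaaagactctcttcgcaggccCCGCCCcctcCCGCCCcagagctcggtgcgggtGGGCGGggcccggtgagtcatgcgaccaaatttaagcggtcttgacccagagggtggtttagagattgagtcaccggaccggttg

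ACADVL, for very long chains, had 13.4 to 21.3 FPKM with a median of 17.2 in diabetic wounds and 12.7, 17.5, 15.1 and 14.8 FPKM in non-diabetic wounds. Its change in log2 was 0.21 (SE 0.14, limma adjusted p = 0.470). ACADL, for long chains, had 17.0 to 24.8 FPKM in diabetic and 17.2 to 22.7 FPKM in non-diabetic wounds (change in log2 0.08). In ACADL the groups overlapped over most of their range. In ACADVL they overlapped in part, with diabetic wounds 3, 6 and 7 above every non-diabetic wound. ACADS, for short chains, had 11.9 to 18.7 FPKM with a median of 17.1 in diabetic wounds and 14.8, 15.5, 11.7 and 11.6 FPKM in non-diabetic wounds. Its change in log2 was 0.25 (limma adjusted p = 0.366). The library names begin with L or R, letters that the labels do not explain. ACADS had a log2 fold change of 0.54 within the R wounds (diabetic wounds 4 to 7 against non-diabetic wounds 3 and 4, limma adjusted p = 0.0209) and of -0.07 within the L wounds (diabetic wounds 1 to 3 against non-diabetic wounds 1 and 2, limma adjusted p = 0.881). Over all genes, the R wounds alone gave 726 called higher and 626 lower of 13207 tested, against 188 and 231 of 13956 with all wounds. ACADS was the only member called there, and this split was chosen after the data were seen. With an interaction term, the adjusted p of the difference of ACADS between letters was not under 0.05 (limma).

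ACAD9, which also helps to assemble respiratory complex I, had a log2 fold change of -0.02 with a 95% confidence interval from -0.24 to 0.21 (limma). ACAD10 and ACAD11 are less studied relatives whose proteins carry an additional kinase-like part. ACAD10 (chromosome 14, 32841863 to 32890983) had 3.30 FPKM in the lowest, 3.62 in the median and 4.12 in the highest diabetic wound. The non-diabetic wounds had 5.29, 4.87, 4.90 and 4.25 FPKM. Every diabetic wound was below every non-diabetic wound, with a gap of little more than 0.1 FPKM between the nearest pair. The means were 3.65 ± 0.297 FPKM (SD, n = 7) and 4.83 ± 0.430 FPKM (SD, n = 4), a log2 fold change of -0.36 (SE 0.09, limma adjusted p = 0.0495, exact permutation p = 0.00303). When each wound was left out in turn its adjusted p ranged from 0.045 to 0.159 (limma). It was 0.144 without diabetic wound 4 and non-diabetic wound 1, at a log2 fold change of -0.35. ACAD11, counted as mitochondrial, had 2.58 to 4.86 FPKM in diabetic and 4.17 to 4.56 FPKM in non-diabetic wounds, and its lowest value was that of diabetic wound 1.

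HADHA and HADHB encode the alpha and beta subunits of the mitochondrial trifunctional protein, which carries out the remaining steps on long chains. HADHA (chromosome 3, 112753343 to 112797627, plus strand) had 36.9 to 50.7 FPKM with a median of 45.5 in diabetic wounds. The non-diabetic wounds had 34.1, 37.6, 31.2 and 33.8 FPKM. Diabetic wounds 1 and 5 lay below non-diabetic wound 2, and the other 5 diabetic wounds were above all 4 non-diabetic wounds. The means were 43.9 ± 6.29 FPKM (SD, n = 7) and 34.2 ± 2.64 FPKM (SD, n = 4), a log2 fold change of 0.35 (SE 0.11, limma adjusted p = 0.127, exact permutation p = 0.0152). Without diabetic wound 4 and non-diabetic wound 1 it was 0.38 (limma adjusted p = 0.218). HADHB had 31.8 to 49.8 FPKM in diabetic wounds and 31.0, 40.3, 35.6 and 41.7 FPKM in non-diabetic wounds. Its groups overlapped more, with a log2 fold change of 0.22 (SE 0.13, limma adjusted p = 0.406). Within a wound the ratio of HADHA to HADHB was 0.860 to 1.21 in diabetic and 0.811 to 1.10 in non-diabetic wounds.

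The pair is read from opposite strands, with starts 222 bases apart, and the 221 bases between them are shown because they are upstream of both subunits (Sscrofa11.1, chr3:112753122-112753342, plus strand). No letters are in capitals because neither CCAAT nor GGGCGG was present on either strand.
HADHB-HADHA interval: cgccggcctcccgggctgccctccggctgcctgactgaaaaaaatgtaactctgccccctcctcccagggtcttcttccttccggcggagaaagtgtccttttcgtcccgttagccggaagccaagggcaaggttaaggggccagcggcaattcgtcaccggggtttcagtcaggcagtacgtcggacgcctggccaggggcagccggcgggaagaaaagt

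HADH, the hydroxyacyl-CoA dehydrogenase for shorter chains, had 38.9 to 51.1 FPKM in diabetic wounds and 49.1, 47.9, 47.6 and 38.7 FPKM in non-diabetic wounds. Its change in log2 was -0.08 with a 95% confidence interval from -0.30 to 0.14 (limma adjusted p = 0.728). ACAA2, the mitochondrial thiolase, had 11.9 to 27.3 FPKM with a median of 22.8 in diabetic wounds and 23.1, 19.1, 20.5 and 19.2 FPKM in non-diabetic wounds. Diabetic wound 1 held the lowest value of ACAA2 and lay well below every other wound, and the log2 fold change was 0.05 (limma adjusted p = 0.927).

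Unsaturated chains need auxiliary enzymes. The isomerase ECI1 had 6.41 to 11.4 FPKM in diabetic and 6.92 to 10.7 FPKM in non-diabetic wounds. The isomerase ECI2, counted as mitochondrial and also found in peroxisomes, had 19.2 to 25.5 FPKM in diabetic and 20.3 to 28.4 FPKM in non-diabetic wounds. The reductase DECR1 had 16.7 to 23.5 FPKM in diabetic and 16.1 to 23.9 FPKM in non-diabetic wounds. The 3 log2 fold changes were 0.07, -0.15 and 0.06, each with a 95% confidence interval inside -0.5 to 0.5. ACOT13, a thioesterase counted as mitochondrial that releases fatty acids from acyl-CoA, had 0.774 to 1.22 FPKM in diabetic and 0.978 to 1.24 FPKM in non-diabetic wounds. The log2 fold change of ACOT13 was -0.10.

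The electron transfer genes had log2 fold changes above 0 in all 3 cases, and none passed the test. ETFB, the beta subunit of electron transfer flavoprotein (chromosome 6, 58501892 to 58517580, plus strand), had 25.4 to 33.5 FPKM with a median of 26.1 in diabetic wounds. The non-diabetic wounds had 20.9, 22.2, 20.3 and 24.5 FPKM. The groups did not overlap, although diabetic wound 1 was within 1 FPKM of non-diabetic wound 4. The means were 28.6 ± 3.49 FPKM (SD, n = 7) and 22.0 ± 1.86 FPKM (SD, n = 4), a log2 fold change of 0.36 (SE 0.10, limma adjusted p = 0.0794, exact permutation p = 0.0121). Without diabetic wound 4 and non-diabetic wound 1 it was 0.36 (limma adjusted p = 0.198).

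ETFA, the alpha subunit, had 28.0 to 34.0 FPKM with a median of 32.6 in diabetic wounds and 25.2, 29.3, 27.6 and 28.1 FPKM in non-diabetic wounds. Diabetic wound 4 was the only diabetic wound inside the non-diabetic range of ETFA. The log2 fold change was 0.21 (SE 0.08, limma adjusted p = 0.164, exact permutation p = 0.0121). ETFDH, the membrane oxidoreductase that hands these electrons to ubiquinone, had 22.7 to 30.4 FPKM in diabetic wounds and 23.5, 22.8, 23.1 and 21.2 FPKM in non-diabetic wounds. Its change in log2 was 0.18 (limma adjusted p = 0.293, exact permutation p = 0.0394).

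The 250 bases upstream of ETFB are shown as those of the mitochondrial member with the highest log2 fold change (Sscrofa11.1, chr6:58501642-58501891, plus strand). Capitals mark CCAAT, here as its reverse complement ATTGG, and GGGCGG.
ETFB upstream: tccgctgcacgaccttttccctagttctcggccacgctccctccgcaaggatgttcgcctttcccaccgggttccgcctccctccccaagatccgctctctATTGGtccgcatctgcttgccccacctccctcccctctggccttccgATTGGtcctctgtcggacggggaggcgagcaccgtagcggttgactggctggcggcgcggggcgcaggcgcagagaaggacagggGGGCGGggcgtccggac

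**Figure D3:**
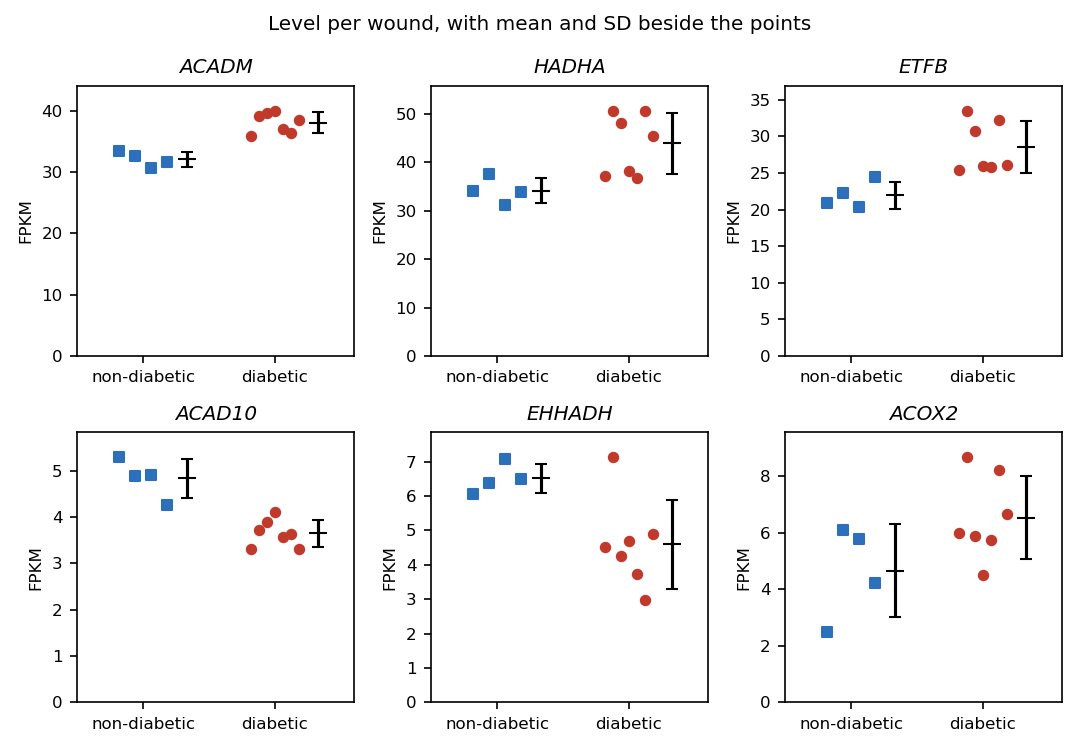
FPKM in each wound of ACADM, HADHA, ETFB, ACAD10, EHHADH and ACOX2, from 0, with the mean and SD beside the points (4 non-diabetic wounds as blue squares, 7 diabetic wounds as red circles). The groups are apart in ACADM, ETFB and ACAD10, and in EHHADH diabetic wound 2 at 7.13 FPKM lies above all non-diabetic wounds while the other 6 lie below them.

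Among the peroxisomal genes, the transporters bring acyl-CoA across the membrane. ABCD3 had 11.6 to 22.0 FPKM in diabetic wounds and 10.8, 13.5, 13.4 and 12.5 FPKM in non-diabetic wounds. Diabetic wound 2 held the value of 22.0, and the log2 fold change was 0.24 (limma adjusted p = 0.449). ABCD2 was close to absent, with 0 to 19 reads in diabetic wounds and 11 to 38 reads in non-diabetic wounds, or 0 to 0.178 FPKM and 0.0694 to 0.294 FPKM. It was under the filter, its groups overlapped, and the exact permutation test on log2(FPKM + 0.5) gave p = 0.0273, not adjusted for the number of members.

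The oxidases are the first step of the peroxisomal cycle. ACOX2, the branched chain and bile acid intermediate oxidase, had 4.51 FPKM in the lowest, 6.00 in the median and 8.67 in the highest diabetic wound, and 2.50, 6.08, 5.79 and 4.24 FPKM in non-diabetic wounds. It had the widest spread within groups of the tested members (SD 0.388 on the log2 scale), and the value of 2.50 was that of non-diabetic wound 1. The log2 fold change was 0.49 (SE 0.22, 95% confidence interval -0.0041 to 0.98, limma adjusted p = 0.276, exact permutation p = 0.0697). It was 0.32 without diabetic wound 4 and non-diabetic wound 1 (limma adjusted p = 0.394). ACOX3, another oxidase of branched chains, had 3.61 to 6.68 FPKM in diabetic wounds and 7.50, 7.01, 5.36 and 4.78 FPKM in non-diabetic wounds (change in log2 -0.28, limma adjusted p = 0.441). Within the L wounds of ACOX3 the log2 fold change was -0.78 (SE 0.18, limma adjusted p = 0.173) and within the R wounds 0.16 (SE 0.14, limma adjusted p = 0.480).

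EHHADH and HSD17B4 are the 2 peroxisomal bifunctional enzymes, each with a hydratase and a dehydrogenase part, and EHHADH is the one known as a PPAR target in liver. EHHADH (chromosome 13, 123104085 to 123162119, minus strand) had 2.98 FPKM in the lowest, 4.52 in the median and 7.13 in the highest diabetic wound. The non-diabetic wounds had 6.07, 6.38, 7.09 and 6.51 FPKM. Of the 7 diabetic wounds, 6 were below every non-diabetic wound, and diabetic wound 2 was above them all. The means were 4.60 ± 1.29 FPKM (SD, n = 7) and 6.51 ± 0.427 FPKM (SD, n = 4), a log2 fold change of -0.49 (SE 0.17, limma adjusted p = 0.146, exact permutation p = 0.0333). Without diabetic wound 2, the wound that went the other way, it passed the test, with a log2 fold change of -0.60 (limma adjusted p = 0.0328). With limma's library weights it also did, with -0.57 (limma adjusted p = 0.0284). Over all genes, the fit without diabetic wound 2 called 208 higher and 236 lower of 13850. Library weights called 406 higher and 416 lower of 13956, against 188 and 231 in the reported fit. Leaving out any other single wound did not call EHHADH. Within the L wounds of EHHADH the log2 fold change was -0.25 and within the R wounds -0.69, with adjusted p of 0.609 and 0.0678 (limma). Without diabetic wound 4 and non-diabetic wound 1 it was -0.53 (limma adjusted p = 0.259).

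HSD17B4, which handles a wider range of chains, had 28.2 to 35.5 FPKM in diabetic wounds and 27.9, 30.7, 33.7 and 30.4 FPKM in non-diabetic wounds. The groups covered nearly the same range, and the log2 fold change of 0.02 had a 95% confidence interval from -0.17 to 0.21 (limma adjusted p = 0.926). As a ratio within each wound, EHHADH to HSD17B4 was 0.208 to 0.218 in the 4 non-diabetic wounds and 0.0982 to 0.201 in the 7 diabetic wounds, without overlap. This ratio was chosen after the values were seen, as 1 of 8 ratios of single genes, and is a description.

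The 250 bases upstream of EHHADH are shown as those of the member with the lowest log2 fold change (Sscrofa11.1, chr13:123162120-123162369, read on the minus strand). They are poor in G and C (41.6%, against 63.6% for ACADM and 68% for ETFB), and capitals mark the reverse complement of GGGCGG.
EHHADH upstream: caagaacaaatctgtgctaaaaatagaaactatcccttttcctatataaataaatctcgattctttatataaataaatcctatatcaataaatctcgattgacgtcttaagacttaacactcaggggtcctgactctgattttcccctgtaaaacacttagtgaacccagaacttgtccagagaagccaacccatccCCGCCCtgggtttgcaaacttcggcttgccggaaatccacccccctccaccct

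The thiolases end each peroxisomal turn. ACAA1 had 11.6 to 25.9 FPKM in diabetic and 15.1 to 22.9 FPKM in non-diabetic wounds, with a log2 fold change of -0.0016 and a 95% confidence interval from -0.43 to 0.43. SCP2, whose gene also gives a sterol carrier protein, had 23.6 to 38.0 FPKM in diabetic and 27.8 to 39.1 FPKM in non-diabetic wounds (change in log2 -0.13). The reductase DECR2 had 4.37 to 10.8 FPKM in diabetic and 7.03 to 9.09 FPKM in non-diabetic wounds (change in log2 -0.07). For these genes the diabetic wounds reached both above and below the non-diabetic wounds, except that the highest SCP2 value was that of a non-diabetic wound. The thioesterase ACOT8 had 7.16 to 11.9 FPKM in diabetic wounds and 12.9, 9.43, 9.57 and 9.59 FPKM in non-diabetic wounds (change in log2 -0.09).

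PHYH and AMACR open the way for methyl-branched chains, PHYH by the first step of phytanic acid breakdown and AMACR by changing the configuration of the methyl group. PHYH had 32.01 to 51.5 FPKM with a median of 43.6 in diabetic wounds and 52.6, 52.4, 47.5 and 42.9 FPKM in non-diabetic wounds (change in log2 -0.19, SE 0.12, limma adjusted p = 0.446). The groups overlapped, with diabetic wound 1 the lowest of all. AMACR had 6.25 to 11.5 FPKM in diabetic and 7.09 to 10.3 FPKM in non-diabetic wounds (change in log2 -0.03, limma adjusted p = 0.949).

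The mitochondrial and the peroxisomal members were then set side by side. The 18 mitochondrial members had a median change of 0.07 in log2, with 12 above and 6 below 0 and a range from -0.36 to 0.36. The 11 tested peroxisomal members had a median of -0.07, with 3 above and 8 below 0 and a range from -0.49 to 0.49. The median over all genes tested was 0.014. With each library rescaled to the same sum the medians were 0.00043 and -0.14, and that of all genes was -0.06. The spread of these medians between wounds, as an SD, was 0.096 for the mitochondrial and 0.152 for the peroxisomal members, which is the spread of single wounds and not the error of the difference between the groups. The 5 members placed in more than 1 compartment had estimates between -0.15 and -0.03, all below 0, and without them the mitochondrial median was 0.18.

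The summed FPKM of the mitochondrial members was 355 to 435 in diabetic and 348 to 382 in non-diabetic wounds, and that of the peroxisomal members was 149 to 202 and 175 to 206. Both sums overlapped between groups. Their ratio within each wound was 2.09 to 2.38 in diabetic wounds (mean 2.21 ± 0.097, SD, n = 7) and 1.85 to 1.99 in non-diabetic wounds (mean 1.92 ± 0.080, SD, n = 4), without overlap. Without the members of more than 1 compartment the ratio was 2.47 to 2.88 and 2.19 to 2.41, again without overlap. A sum is led by the most abundant genes. When each gene counted equally, as the mean log2 level of the mitochondrial minus that of the peroxisomal members, the values were 0.297 to 0.473 in diabetic and 0.199 to 0.327 in non-diabetic wounds, and diabetic wound 2 was below non-diabetic wound 1. No test was made of these quantities, since the members were chosen with earlier results of the same wounds known.

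**Figure D4:**
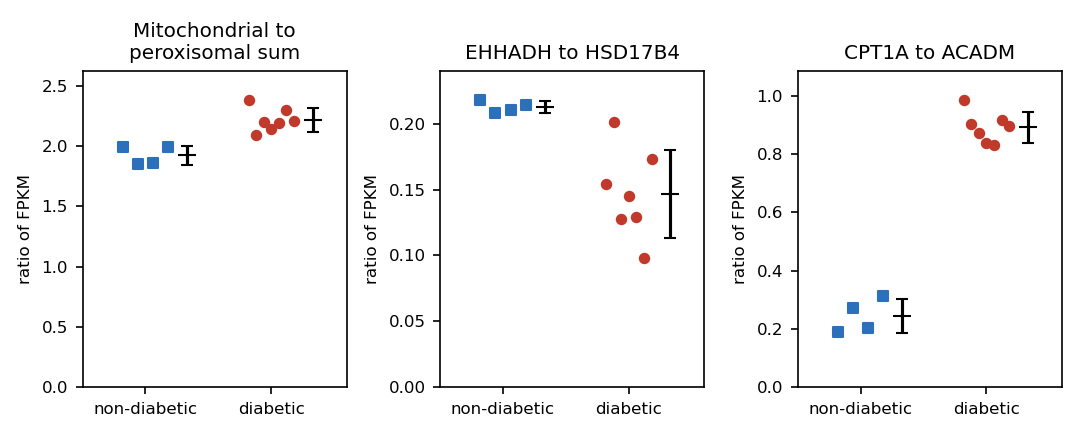
Ratio of FPKM within each wound, from 0, for the summed mitochondrial to peroxisomal members, EHHADH to HSD17B4 and CPT1A to ACADM, with the mean and SD beside the points (4 non-diabetic wounds as blue squares, 7 diabetic wounds as red circles). In each panel the groups do not overlap, with 1.85 to 1.99 against 2.09 to 2.38 for the sums. Of the ratios of single genes not drawn, CPT1A to HADHA and CPT1A to CPT2 did not overlap either. The rest did overlap, among them ACADM to EHHADH, at 5.48 to 12.2 in diabetic and 4.33 to 5.52 in non-diabetic wounds.

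Some wounds held the lowest or highest value of many members. Diabetic wound 1 held the lowest diabetic value in 15 of the 29 tested members, 10 mitochondrial and 5 peroxisomal, and diabetic wound 3 held it in 0. Diabetic wound 2 held the highest diabetic value in 10 members, among them HADHA, HADHB, HADH, ETFA, ETFB, EHHADH and HSD17B4. Non-diabetic wound 1 was the lowest of its group in 10 members and the highest in 12, which left its median difference from the group at -0.00067 on the log2 scale.

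**Figure D5:**
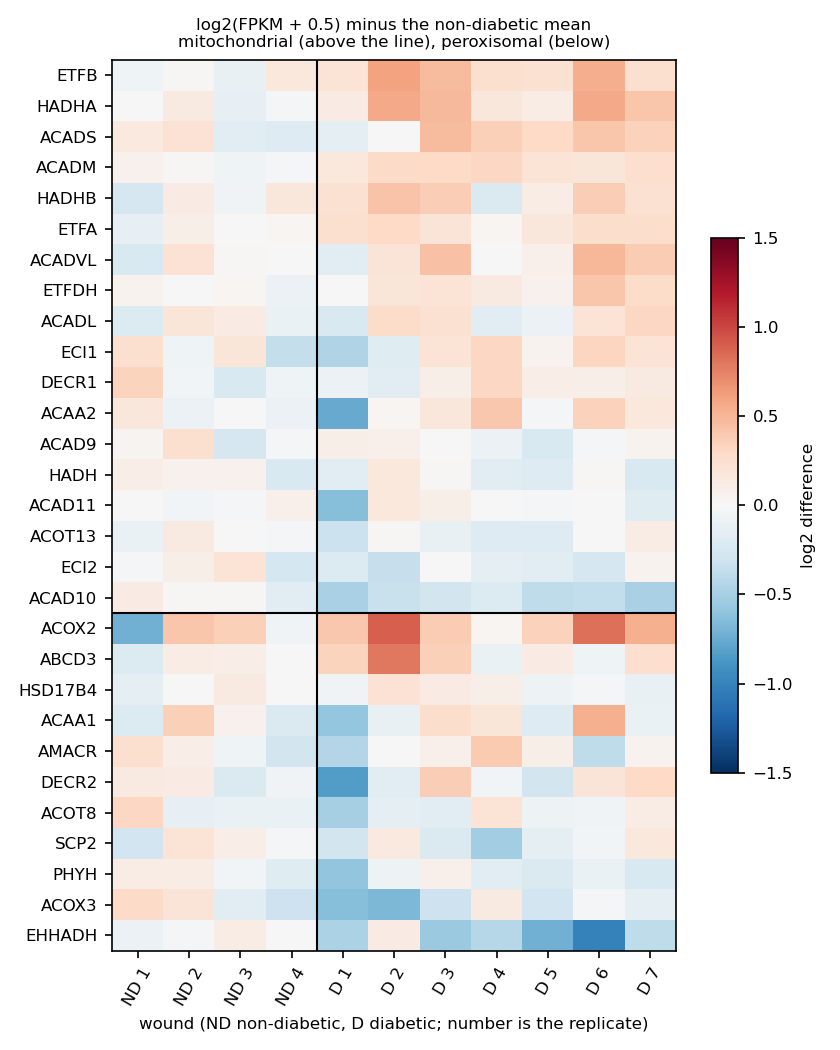
Difference of log2(FPKM + 0.5) from the mean of the non-diabetic wounds for each tested member (rows) in each wound (columns), with mitochondrial members above the line and peroxisomal members below it and red for higher. The column of diabetic wound 1 is blue in most rows, and the row of EHHADH is blue in all diabetic wounds but wound 2.

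In the bases upstream of the members, motifs were counted on both strands and set beside 20664 protein-coding genes of the same annotation. AGGTCA, the core that nuclear receptors bind, was found in 4 of 30 members (ECI1, DECR1, ECI2 and AMACR), against 12.3% of all genes. TCAAGGTCA, the extended form bound by estrogen-related receptors, which contains AGGTCA, was found in ECI2 alone, against 0.324% of all genes. The PPAR-type element searched, 2 copies of AGGTCA in the same direction with 1 base between them, was found in 0 members, against 0.0242% of all genes. CCAAT was found in 10 of 30 members (6606 of the 20664 genes) and GGGCGG in 19 of 30 (44.4% of all genes). These are matches of letters in a window of 250 bases and say nothing of binding.

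The steps around the cycle were counted from lists. Over all genes tested, 1.35% were called higher and 1.66% lower. Of 8 carnitine shuttle genes, 2 passed the test and both rose in diabetic wounds, CPT1A and the carrier SLC25A20. CPT1A had 30.7 to 35.3 FPKM in diabetic wounds and 6.35, 8.83, 6.28 and 9.91 FPKM in non-diabetic wounds (change in log2 2.07, SE 0.12, limma adjusted p = 6.54e-06). Set against the medium-chain dehydrogenase in the same wound, the CPT1A to ACADM ratio was 0.830 to 0.985 in diabetic and 0.190 to 0.313 in non-diabetic wounds. This ratio is a description, and CPT1A alone already separated the groups. SLC25A20 had 23.1 to 30.1 FPKM in diabetic and 10.7 to 15.1 FPKM in non-diabetic wounds (change in log2 1.11, SE 0.11, limma adjusted p = 0.000338). The interval of CPT1A did not meet that of any beta-oxidation member in the plot of fold changes.

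Of 12 tested acyl-CoA synthetase genes, which activate fatty acids, SLC27A3 rose (log2 fold change 0.92, limma adjusted p = 0.000562) and ACSL3 fell (log2 fold change -0.74, limma adjusted p = 0.00103). The most abundant of them, ACSF2, had 42.2 ± 8.91 FPKM (SD, n = 7) and 41.8 ± 9.13 FPKM (SD, n = 4). Of 16 peroxisome biogenesis genes 0 passed the test in limma, with 2 at an unadjusted p under 0.05 and a median log2 fold change of -0.05, and PEX10 was the most abundant. Of 20 other peroxisomal enzymes 0 passed, with 3 at an unadjusted p under 0.05. Over all genes tested 3.00% passed and 18.4% had an unadjusted p under 0.05 (limma), so 0 passing in either list is near that share. Catalase, CAT, which removes the hydrogen peroxide that the oxidases make, was the most abundant with 75.3 ± 17.0 FPKM (SD, n = 7) against 57.0 ± 5.84 FPKM (SD, n = 4), a log2 fold change of 0.37 (limma adjusted p = 0.271).

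Of 18 genes of the tricarboxylic acid cycle, which takes up the acetyl-CoA, 0 passed the test in limma and 0 had an unadjusted p under 0.05. Over all genes tested the shares were 3.00% and 18.4%. Their median log2 fold change was 0.04, SDHD was the most abundant, and 17 of the 18 had a 95% confidence interval inside -0.5 to 0.5. Of 11 tested regulators 0 passed in limma, 1 had an unadjusted p under 0.05, and ESRRA was the most abundant. Of 9 tested PPAR targets of fasting, 5 rose, ANGPTL4, PLIN2, UCP2, CPT1A and SLC25A20, with log2 fold changes from 1.05 to 2.58, and FABP3 fell (log2 fold change -1.69, limma adjusted p = 0.00423). CPT1A and SLC25A20 stand in both lists.

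Markers of cell types moved with the groups in part, where 1.35% of all genes tested were called higher and 1.66% lower. Of 9 macrophage markers 2, MRC1 and CD14, were called higher, all 9 estimates were above 0 with a median of 0.66, and their summed level was 747 to 1703 FPKM in diabetic and 482 to 900 FPKM in non-diabetic wounds. Of 6 adipocyte markers 1, LEP, was called lower, with a median log2 fold change of -0.99 over the list, 5 estimates below 0 and 1 above. The 1 above was FABP4, the most abundant of them, which did not pass the test (403 ± 126 FPKM, SD, n = 7, against 209.85 ± 58.6 FPKM, SD, n = 4, log2 fold change 0.92, limma adjusted p = 0.0607). The summed level of the list was 278 to 846 FPKM in diabetic and 283 to 484 FPKM in non-diabetic wounds. None of 8 keratinocyte, 7 fibroblast, 6 tested neutrophil and 6 endothelial markers was called in limma. Nor did any of them have an unadjusted p under 0.05 (limma). Confidence intervals of the log2 fold change lay between -1 and 1 for 0 keratinocyte, 6 fibroblast, 2 neutrophil and 6 endothelial markers. For keratinocyte and neutrophil markers, 0 called therefore does not show an unchanged level. The most abundant neutrophil marker, S100A12, had 17.5 FPKM in diabetic wound 4 and 133 FPKM in non-diabetic wound 1. Those wounds were also lowest in keratinocyte markers, and elsewhere S100A12 had 1508 to 5348 FPKM. The part of these cell types in the values of ACADM, HADHA, ETFB, ACAD10 and EHHADH was not tested.

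Reads can be shared where genes overlap. A total of 11 members overlapped another annotated gene, in each case on the opposite strand, among them ACAA1 with MYD88 over 2618 bases, ACAD11 with ACKR4 over 3909 bases and ACOT13 with C7H6orf62 over 1164 bases. The libraries were directional, but whether the counting used strand is not given in the sources used here, so reads of those members and their partners may not be told apart. ACADM, HADHA, ETFB and EHHADH overlapped no other gene, and ACAD10 overlapped BRAP over 22 bases. A gene annotated as resembling ACOT1, LOC110255331 on chromosome 7, is no member and had 13.4 to 20.5 FPKM in diabetic and 14.9 to 19.3 FPKM in non-diabetic wounds (change in log2 0.02, limma adjusted p = 0.955).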

How the data were processed

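Poly-A selected, directional RNA libraries of 7 diabetic and 4 non-diabetic wounds were sequenced. The authors used fastp for trimming, HISAT2 2.2.1 for mapping (Sscrofa11.1) and featureCounts 2.0.6 for counting (tools and versions from the submitters' processing notes, which also name StringTie 2.2.3). The authors deposited the values as FPKM per gene with gene length, and the formula is not given in the sources used here. Multiplied by length, 100% of the values were whole reads within 0.05 of a read. Gene starts in the deposited table equalled the NCBI starts (Sscrofa11.1) for 100% of 30335 identifiers.

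Genes with at least 0.5 FPKM in at least 4 libraries (13956 genes) were compared on log2(FPKM + 0.5) with limma 3.58.1 (lmFit, eBayes with trend, R 4.3.3) and Benjamini-Hochberg adjustment over all of them. Calls needed an absolute log2 fold change over 0.5 beside an adjusted p under 0.05. Fold changes on this scale understate the change of low genes. Each member was tested a second time with all 330 splits of the wounds into 7 and 4 (exact permutation test, two-sided), whose smallest p is 0.00303. The permutation p-values are not adjusted for the number of members. The fit was also run on simulated data with known changes, in which genes varied independently of each other. In these wounds many members varied together, so the simulation gives no rate of false calls for them.

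All members were named. Of the other lists, only called genes and the most abundant gene were named. The members and lists were chosen with earlier results of these data known. Alternatives covered filters on low values, the pseudocount, scaling, limma settings for spread and weights, covariates, voom on recovered reads and leaving out wounds. Sequences were read from the Sscrofa11.1 RefSeq genome by the coordinates of the deposited table (Python 3.11.15). Replicate numbers did not pair the wounds.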

Additional observations from a re-analysis of the deposited data

Results flagged for a closer look

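A wound far from the others of its group was looked for in 58 groups of values (29 tested members in each of 2 groups), and chance alone marks about 1 in 20 groups. It was found in 2. HADH had 38.75 FPKM in non-diabetic wound 4, against 47.62 to 49.14 FPKM in the other 3 non-diabetic wounds. ACOT8 had 12.89 FPKM in non-diabetic wound 1, against 9.43 to 9.59 FPKM in the other 3. The difference between the wounds of the 2 animals in ACOX3 was not the same for library names in R and in L, by a log2 value of 0.94 (R minus L, interaction term, limma adjusted p = 0.0425). Without diabetic wound 4 and non-diabetic wound 1 the same difference was 0.82 (adjusted p = 0.230, limma). Over all genes tested this interaction had an adjusted p under 0.05 in 901 genes with the 11 wounds and in 1 gene with the 9 wounds (limma).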

How the results depend on the processing

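The count of members called higher or lower stayed at 0 in every alternative except library weights (1 lower, EHHADH), the R wounds alone (1 higher, ACADS, chosen after seeing the data) and the fits that left out 1 wound, in which the count called lower was 0 to 1 (EHHADH without diabetic wound 2). Of 783 values of single members, 50 in 13 members had the other sign and 3 newly passed the test. The median of the mitochondrial members was 0.07 as reported, 0.18 without members of more than 1 compartment, 0.17 with library weights, -0.075 in the L wounds, 0.20 in the R wounds, 0.017 with quantile normalization and 0.00043 with libraries rescaled to the same sum. The median of the peroxisomal members was -0.07 as reported, -0.25 in the L wounds, 0.15 in the R wounds, -0.09 with quantile normalization, -0.14 with rescaled libraries, -0.15 with the replicate block and -0.0027 with library weights. Quantile normalization gave ACADL -0.0014, DECR1 -0.016, ACAA2 -0.027 and HSD17B4 -0.076. Rescaling each library to the same sum gave ECI1 -0.0050, DECR1 -0.0084, ACAA2 -0.025 and HSD17B4 -0.051, with the median of all genes at -0.06. Library weights gave HSD17B4 -0.0062, ACAA1 0.053, DECR2 0.10 and AMACR 0.059. The replicate numbers did not pair the wounds (correlations of same-numbered wounds -0.27, 0.22, 0.07 and -0.48), and with the replicate block 0 members were called, ACAD9 was 0.018, ECI1 -0.033, ACAA2 -0.035 and AMACR 0.0061, and over all genes 11 were called higher and 5 lower instead of 188 and 231. Without diabetic wound 4 and non-diabetic wound 1 together ACAD9 was 0.011 and HSD17B4 -0.032, and 106 genes were called higher and 81 lower over the table. In the L wounds, with 3 genes called higher and 4 lower in all, ACADS was -0.069, ECI1 -0.23, DECR1 -0.20 and ACAA2 -0.22. In the R wounds, with 726 and 626, ACAD9 was 0.072, ACOX3 0.16, HSD17B4 -0.094, ACAA1 0.19, DECR2 0.18, ACOT8 0.15 and AMACR 0.21. When 1 wound was left out at a time, the log2 fold change ranged from -0.099 to 0.063 for ACAD9, -0.12 to 0.0089 for ACAD11, -0.052 to 0.15 for ECI1, -0.011 to 0.17 for DECR1, -0.012 to 0.18 for ACAA2, -0.022 to 0.068 for HSD17B4, -0.091 to 0.12 for ACAA1, -0.14 to 0.064 for DECR2, -0.13 to 0.018 for ACOT8 and -0.12 to 0.050 for AMACR. The cause of these moves was not tested. With library weights 406 genes were called higher and 416 lower over the table, and voom called 149 and 259. Leaving out 1 wound gave 104 to 236 higher and 75 to 247 lower. Each group was 1 animal and the depth of ABCD2 was at most 38 reads.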

Other observations

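The members varied from wound to wound within the groups, some pairs in the same and some in opposite directions. Over 11 wounds, the deviations from the group means on the log2 scale had their highest correlations among the tested members in ACADL with ACOT13 (r = 0.92), HADHB with ETFA (r = 0.90) and ETFA with SCP2 (r = 0.89), and their lowest in DECR1 with ACOX2 (r = -0.81), DECR1 with ETFA (r = -0.76) and DECR1 with ABCD3 (r = -0.75). Diabetic wound 4 and non-diabetic wound 1 each held the highest DECR1 and the lowest ACOX2, ETFA and ABCD3 of their group. No correlation without these wounds is given. The trifunctional subunits HADHA and HADHB, read from a shared interval, had r = 0.65, and ETFA and ETFB had r = 0.47. These are descriptions, in which the genes of a pair share the library, depth and cell makeup of each wound, and no test was made.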
